A study of Rattus norvegicus with 2 samples.

Results

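Genes of the ubiquitin system whose rat symbols place them in 7 families were followed in cultured cortical neurons electroporated with a PIWIL1 RNAi plasmid or with the Scramble control plasmid. The families are the ubiquitin-conjugating enzymes (Ube2), the F-box proteins (Fbxo, Fbxl and Fbxw), the cullins (Cul), the ubiquitin-specific proteases (Usp) and the numbered RING finger proteins (Rnf). Members were chosen by symbol, which for 11 of them was taken from the gene description. The symbol had to start with Ube2, Fbxo, Fbxl or Fbxw, or with Cul, Usp or Rnf followed by a digit. This gave 163 of the 9894 genes with a tag in either library (1.65%), comprising 27 Ube2, 23 Fbxo, 10 Fbxl, 6 Fbxw, 7 Cul, 36 Usp and 54 Rnf genes. A symbol does not fix a function. Usp6nl, whose name was built from that of a protease, encodes a GTPase-activating protein, and Usp39 encodes a splicing factor.

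Ubiquitin is activated by an E1 enzyme, passed to an E2 of the Ube2 family, and joined to a substrate with the help of an E3 ligase. Many Rnf proteins are E3 ligases with a RING domain. Cullins are scaffolds that carry a RING subunit (Rbx1 or Rnf7) at one end and, through an adaptor, a substrate receptor such as an F-box protein at the other. They are switched on when the ubiquitin-like protein NEDD8 is attached to them, a step that has its own E1 (Nae1 with Uba3) and its own E2s (Ube2m and Ube2f). Usp proteins remove ubiquitin. In developing neurons this system is known for the control of cell cycle exit, polarity, axon growth and synapse formation.

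The data are 1 library per condition from Sprague-Dawley rat embryos at E16. Somatosensory cortex was dissociated, the cells were electroporated with the Scramble or the PIWIL1 RNAi plasmid, and total RNA was taken after 48 h in Neurobasal medium with serum and B27. The labels mention no sorting for electroporated cells, the number of animals and the siRNA sequence used for these libraries are not given in the sources used here, and PIWIL1 itself was not analysed here, so the knockdown was not checked. Transcripts were counted by digital gene expression, in which a transcript is cut at CATG sites and each 21-base tag that begins with CATG is counted.

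With 1 library per condition there is no measure of the spread between cultures. Every p-value is therefore about these 2 libraries, not about the conditions, and every interval is an exact 95% interval for counting error only. The listed tags on genes summed to 1947600 (Scramble) and 1865913 (PIWIL1 RNAi) copies. All 8 neuronal markers examined were listed, and their summed level was 5254 TPM with Scramble and 4348 TPM with PIWIL1 RNAi, where TPM is the number of copies relative to the clean tags of a library, whatever the gene length. Of 7 progenitor markers 6 were listed (Eomes was not), with 1009 and 1302 TPM. Vim, which glial and other non-neuronal cells also express, went from 2674 to 3724 copies, whereas the 5 others (Sox2, Nes, Pax6, Hes5 and Fabp7) had fewer copies in the PIWIL1 RNAi library. Interneuron markers (5 of 5 listed) summed to 65.6 and 75.1 TPM, and astrocyte, oligodendrocyte lineage, microglial and blood markers were each below 40 TPM in both libraries. Of the endothelial markers Cldn5, Pecam1 and Kdr were not listed and Flt1 had 0 and 2 copies. The part of cell composition in the values below was not tested, and in bulk RNA fewer cells of a type and less RNA per cell cannot be told apart.

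The tags that carry the results are shown here because for several genes 1 tag set the direction of the whole gene, and because ratios differed with the last bases of the tag. All are printed 5′ to 3′ in the letters of the deposited tables. Capitals mark the last 2 bases, or the whole terminal run of A where it has 8 or more. The site is the CATG site counted from the 3′ end of the transcript, and the copies are those of the Scramble and then of the PIWIL1 RNAi library.

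The first set holds the tags of the NEDD8 E2 enzymes, Ube2m (site 4, 367 and 135 copies; site 5, 49 and 32 copies) and Ube2f (site 1, 8 and 72 copies; site 3, 15 and 8 copies; site 2, 9 and 3 copies; site 4, 7 and 2 copies):
Ube2m site 4: catgagaggtggttacatcGG
Ube2m site 5: catgaccctcccaaggtgaAG
Ube2f site 1: catgttccgtgtgactggcAG
Ube2f site 3: catgctgtcctgaagaagaCC
Ube2f site 2: catgtttactgaaactactGT
Ube2f site 4: catggtgcctcccaaggtgAA

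The second set holds tags that end in a run of A. These are the 2 most copied tags of Cul4a, both at site 1 (150 and 592 copies, and 114 and 624 copies), the only such tag of Fbxo25 (site 1, 11 and 18 copies), and the most copied tag of Ube2ql1, whose terminal run is shorter at 6 A (site 1, 418 and 679 copies):
Cul4a with 13 A: catgagacAAAAAAAAAAAAA
Cul4a with 15 A: catgagAAAAAAAAAAAAAAA
Fbxo25 with 8 A: catgtttatctacAAAAAAAA
Ube2ql1 with 6 A: catgcagaaagaggtaaaaAA

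The third set holds site 1 tags that end in GT, from Usp14 (223 and 81 copies), Fbxw2 (197 and 126 copies) and Rnf5 (57 and 22 copies):
Usp14: catgactttacaataaattGT
Fbxw2: catggagtctgttattaaaGT
Rnf5: catgggagtgcctgctgctGT

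The fourth set holds the most copied tags of the other called genes that the text turns on, Ube2q1 (site 1, 122 and 51 copies), Rnf180 (site 1, 165 and 100 copies), Usp42 (site 4, 226 and 143 copies), Usp25 (site 1, 67 and 38 copies), Fbxo33 (site 1, 38 and 19 copies) and Usp2 (site 2, 2 and 10 copies):
Ube2q1: catgtacactgctttttttGG
Rnf180: catgtgcaaactgtaatcaAC
Usp42: catgtaagatttatatagtAT
Usp25: catgttaccaccgatctatTT
Fbxo33: catgcggattttatatgtaCA
Usp2: catgggaggtcactatacaGC

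Most of the 163 members did not pass the test between the libraries. Their copies summed to 26225 with Scramble and 25536 with PIWIL1 RNAi, which at the depth of each library is a ratio of 0.998. The median log2 ratio of TPM (PIWIL1 RNAi over Scramble) was -0.11 over the 155 members listed in both libraries and -0.09 over the 8899 genes listed in both. By Fisher's exact test, two-sided, with an FDR of 0.05 or less over all 9894 genes and an absolute log2 ratio of 0.58 or more, 7 members (4.29%) were lower and 4 (2.45%) were higher in the PIWIL1 RNAi library. Of all genes, 5.97% were lower and 2.96% higher by the same rule. The members had more copies, with a median of 173 in both libraries together against 86.5 for all genes. Where genes had at least 100 copies, 5.88% of 102 members were lower and 2.94% higher. Of all 4692 genes of that depth, 8.46% were lower and 4.62% higher. The members' shares there rest on 6 lower and 3 higher genes. Where genes had at least 500 copies, 3.03% of 33 members were lower and 6.06% higher, against 7.75% and 4.78% of 1484 genes. The difference in shares was not tested. The same 7 and 4 members were called without tags that end in 8 or more A (5.68% and 2.12% of all genes), and 7 and 3 when 1 copy was added to a tag missing from one library (4.92% and 2.44%). With edgeR's TMM factors the split was 5 lower and 7 higher (4.64% and 4.02% of all genes), and those factors moved the median of all genes by 0.09 on the log2 scale. Of the 7 lower calls Rnf180 and Usp42 were then lost, and Fbxo28, Fbxo31 and Rnf114 were added to the higher ones.

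The 7 genes that fell were Ube2m, Ube2q1, Fbxo33, Rnf180, Rnf5, Usp42 and Usp25, and the 4 that rose were Cul4a, Ube2f, Ube2ql1 and Usp2. A further 8 members lower and 6 higher passed the FDR but not the log2 limit. No filter on low counts was applied, and 23 members had fewer than 20 copies in both libraries together. Fbxo17, Fbxo48, Rnf121 and Rnf128 were listed only in the Scramble library with 2 to 5 copies, and Fbxo4, Rnf24, Rnf138l1 and Rnf150 only in the PIWIL1 RNAi library with 2 to 6 copies. None of these 8 was called, and their smallest FDR was 0.0730 (Fbxo4, Fisher's exact test). Where members had at least 100 copies (102 genes), the interval lay below 0 for 27 (26.5%), above 0 for 12 (11.8%) and included 0 for 63, against 24.8% below and 16.5% above among the 4692 genes of that depth.

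**Figure D1:**
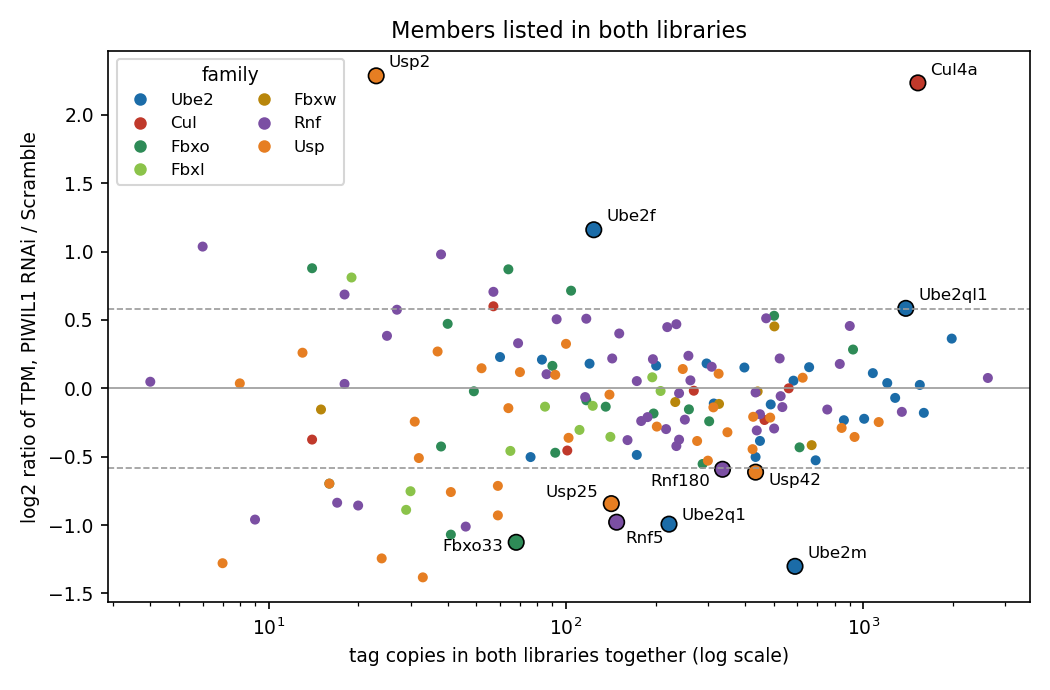
Log2 ratio of TPM (PIWIL1 RNAi over Scramble, vertical axis) of the 155 members listed in both libraries, against their tag copies in both libraries together (horizontal axis, log scale), coloured by family. Large outlined points are the 11 called members, dashed lines mark log2 ratios of -0.58 and 0.58, and the scatter narrows with depth, with Cul4a and Ube2m standing away from genes of like depth.

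The family sums differed from one another in a simple way. The Usp family was lower, the Cul family was higher through a single gene, and the interval of the sum included 0 for Ube2, Fbxo, Fbxl, Fbxw and Rnf. Usp copies went from 4652 to 3806, a log2 ratio of -0.25 (-0.32 to -0.19), and Cul copies from 1038 to 1954, a log2 ratio of 0.95 (0.84 to 1.06). Without tags that end in 8 or more A, Cul copies were 770 and 732, a log2 ratio of -0.04 (-0.18 to 0.11), and the Usp sum was as before because no Usp gene had such a tag. The other sums were 9145 and 8753 copies for Ube2 (log2 ratio -0.03, -0.07 to 0.02), 2020 and 1942 for Fbxo (-0.02, -0.11 to 0.07), 537 and 469 for Fbxl (-0.16, -0.34 to 0.02), 1129 and 1059 for Fbxw (-0.06, -0.18 to 0.07) and 7704 and 7553 for Rnf (0.01, -0.04 to 0.05). Leaving out the A-run tags changed none of these 5 by more than 0.01. Over all genes the sum had a log2 ratio of -0.03.

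**Figure D2:**
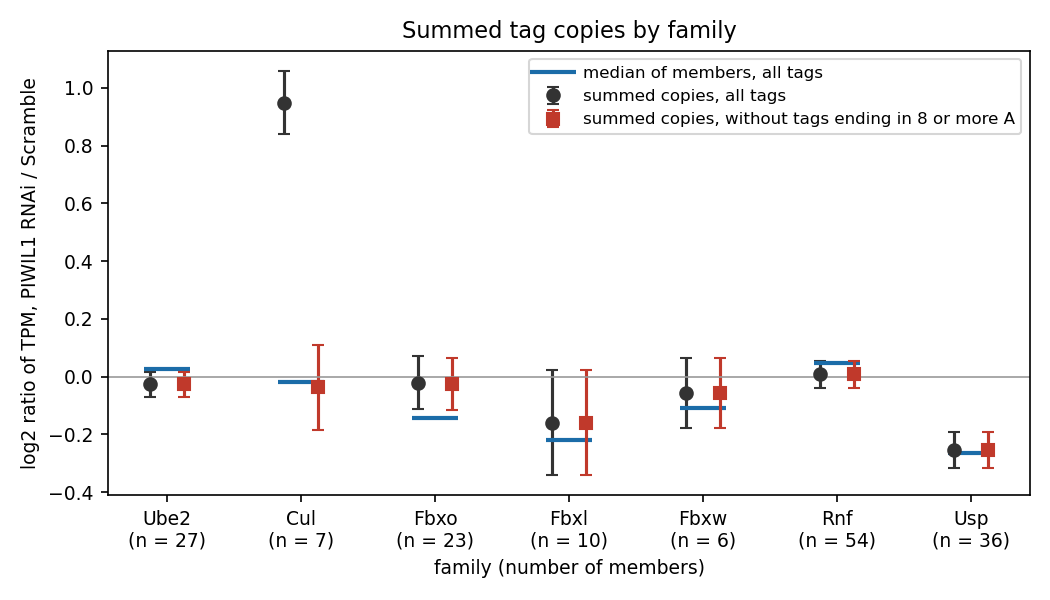
Log2 ratio of summed TPM (PIWIL1 RNAi over Scramble, vertical axis) for each family, with the number of members below its name. Circles show all tags, squares show the sums without tags that end in 8 or more A, bars are exact 95% intervals for counting error and blue lines are medians over members; only the Cul value moves, from 0.95 to -0.04, while its median is -0.02 with all tags.

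Among the 27 ubiquitin-conjugating enzymes, all listed in both libraries, the 2 E2s of the NEDD8 pathway moved in opposite directions. Ube2m, the E2 that loads NEDD8 onto cullins paired with Rbx1, had 422 copies (125 TPM) with Scramble and 167 (50.6 TPM) with PIWIL1 RNAi. Its log2 ratio was -1.30 (-1.57 to -1.04, FDR = 2.83e-22, Fisher's exact test). Ube2f, the E2 that works with Rnf7 and Cul5, had 39 and 85 copies, a log2 ratio of 1.16 (0.60 to 1.75, FDR = 0.000198, Fisher's exact test). The fall of Ube2m was seen on its most copied tag, at site 4. Its other tags together had 55 and 32 copies (log2 ratio -0.75, -1.42 to -0.09). Of these, the site 5 tag had 49 and 32 copies, and its interval was not computed. The rest include site 4 tags 1 base away from the most copied tag, with 2 and 0 copies each, which are not separate evidence. Ube2f behaved otherwise. Its site 1 tag went from 8 to 72 copies, while its other 3 tags together went from 31 to 13, a log2 ratio of -1.22 (-2.28 to -0.24), so the gene's rise rested on 1 tag and the rest of the gene had the opposite sign.

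The other called E2s were Ube2q1 and Ube2ql1, which belong to the little-studied Q branch of the family. Ube2q1 had 149 and 73 copies, a log2 ratio of -0.99 (-1.42 to -0.58), with most of the difference on its site 1 tag ending in GG, and its other tag at 27 and 22 copies. Ube2ql1 had 564 and 825 copies, a log2 ratio of 0.58 (0.43 to 0.74). Its tag ending in 6 A held 79.0% of its copies, and the remaining tags together had 146 copies in each library (log2 ratio 0.04, -0.30 to 0.38).

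Several abundant E2s lay between these. Ube2r2, a partner of cullin ligases and the E2 with most copies, had 879 and 1103 (log2 ratio 0.36, 0.23 to 0.49), an interval above 0 that is short of the log2 limit. Here too the tags differed, since its site 1 tag had 722 and 1000 copies and its other tags together 157 and 103. Ube2b, which takes part in DNA damage tolerance and histone ubiquitination, had 858 and 739 copies (log2 ratio -0.18, -0.32 to -0.04). Ube2n, the E2 for chains linked through lysine 63, had 470 and 390 copies (log2 ratio -0.23), and its partner subunits Ube2v1 and Ube2v2 had 663 and 616 (-0.07) and 102 and 71 (-0.49). None of these 3 was called, and Ube2v2 had a log2 ratio of -0.06 once corrected for the tag end. Ube2l6, the E2 for ISG15, had 28 and 32 copies (log2 ratio 0.23, -0.55 to 1.01).

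Of the 24 Ube2 genes with at least 100 copies, 9 had an interval below 0 and 3 above 0, where 24.8% and 16.5% of all genes of that depth did. Ube2g1 and Ube2g2, E2s of endoplasmic reticulum-associated degradation, were picked out after their values were seen. Ube2g1 had 412 and 279 copies (log2 ratio -0.53, -0.75 to -0.30) and Ube2g2 had 257 and 177 (-0.50, -0.79 to -0.22). Both passed the FDR in Fisher's exact test (0.000111 and 0.00729) without reaching the log2 limit.

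Of the 7 cullins 1 was called. Cul4a, the scaffold of the DDB1-binding ligases, had 273 copies (80.6 TPM) with Scramble and 1252 (379 TPM) with PIWIL1 RNAi. Its log2 ratio was 2.23 (2.04 to 2.43, FDR = 3.56e-156, Fisher's exact test). A terminal run of 8 or more A was carried by 97.7% of its copies, 268 with Scramble and 1222 with PIWIL1 RNAi. The 2 printed above, which hold nearly all of these copies, have 4 bases or fewer between CATG and the run of A. At its other CATG sites Cul4a had 3 and 7 copies. Its remaining 7 tags at site 1, in which a run of A is broken by another base, had 2 and 23 copies, so a rise could not be measured outside A-rich tags at this depth. Cul4a kept its call when only tags with a terminal run were left out (5 and 30 copies) and lost it when tags with 8 or more A anywhere were left out.

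Of the other cullins, Cul1, the scaffold of SCF ligases, had 284 and 277 copies (log2 ratio 0.00, -0.24 to 0.24). Cul2 had 137 and 132 copies (-0.02, -0.37 to 0.34) and Cul3, the partner of BTB proteins, had 254 and 211 (-0.23, -0.50 to 0.04). Cul4b, the X-linked paralogue of Cul4a, had 59 and 42 copies (-0.45, -1.06 to 0.14). Cul5 had 8 and 6 copies, at which a difference was not detectable, and Cul9 had 23 and 34 copies. The interval of each of these 6 genes included 0.

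The F-box proteins held 1 call. Fbxo33, a substrate receptor of SCF ligases, had 47 and 21 copies, a log2 ratio of -1.13 (-1.94 to -0.36, FDR = 0.0240, Fisher's exact test), and all 3 of its tags had fewer copies in the PIWIL1 RNAi library. Fbxo31, a receptor for cyclin D1 that is also known at the neuronal centrosome, had 208 and 293 copies, a log2 ratio of 0.53 (0.27 to 0.79) that passed the FDR and missed the log2 limit. It was called higher with TMM factors and after correction for the tag end (log2 ratio 0.62). Its site 1 tag had 109 and 185 copies, and its other tags together had 99 and 108 (0.16, -0.25 to 0.57). The most copied members of the family were Fbxo21, with 422 and 501 copies (0.28, 0.09 to 0.47), and Fbxo11, with 354 and 256 (-0.43, -0.67 to -0.20). Fbxo22, picked out after its values were seen, had 173 and 115 copies (-0.55, -0.91 to -0.20). Once corrected for the tag end, Fbxo22 had a log2 ratio of -0.15 and Fbxo21 one of 0.08.

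The Fbxl and Fbxw genes held no call. Fbxl19 had 106 and 102 copies and Fbxl5, the iron-sensing receptor, had 96 and 99, with intervals that included 0. In the Fbxw family, whose members bind substrates through WD40 repeats, Fbxw2 had 387 and 283 copies (log2 ratio -0.42, -0.64 to -0.19) and Fbxw8, which pairs with Cul7 and is known for a role in dendrite growth, had 215 and 287 (0.45, 0.19 to 0.71). Fbxw2 carried its largest difference on the GT tag printed above. After correction for the tag end its log2 ratio was -0.05.

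Of the 54 Rnf genes, 2 fell and none was called higher. Rnf5, a ligase anchored in the endoplasmic reticulum membrane, had 99 and 49 copies, a log2 ratio of -0.98 (-1.50 to -0.47). Its GT tag at site 1 had 57 and 22 copies and its other tags together 42 and 27 (log2 ratio -0.60, -1.36 to 0.13). Rnf180, a membrane-anchored ligase also known as Rines, had 204 and 132 copies, a log2 ratio of -0.59 (-0.92 to -0.27). Its 4 most copied tags each had fewer copies in the PIWIL1 RNAi library.

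Differences were smaller in the most copied Rnf genes. Rnf187, the member of all 7 families with most copies, had 1293 and 1329 (log2 ratio 0.08, -0.04 to 0.19). Rnf10 had 722 and 625 (-0.17, -0.33 to -0.02, and -0.33 after correction for the tag end), Rnf7, the RING subunit for Cul5, had 283 and 251 (-0.14, -0.39 to 0.11), and Rnf6, known for a role in axon growth, had 11 and 14. Rnf41, a ligase also known as Nrdp1 that acts on ErbB receptors, and Rnf114 were picked out after their values were seen. Rnf41 had 385 and 515 copies (0.46, 0.26 to 0.65) and Rnf114 had 197 and 274 (0.51, 0.24 to 0.78). Both passed the FDR in Fisher's exact test (1.29e-05 and 0.000911) without reaching the log2 limit. Outside the most copied tag, Rnf41 had 164 and 182 copies (0.19, -0.13 to 0.50) and Rnf114 had 74 and 102 (0.50, 0.05 to 0.95).

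The ubiquitin-specific proteases were lower in sum and in median. The log2 ratio was below 0 for 25 of 36 Usp genes (69.4%) against 56.6% of all genes, and their median was -0.26 against -0.09. The smaller Fbxl and Fbxw families had higher shares below 0, 8 of 10 (80.0%) and 5 of 6 (83.3%), with sums whose intervals included 0. Among the 19 Usp genes with at least 100 copies, 9 had an interval below 0, none had one above 0, and 10 included 0. Of all genes of that depth, 24.8% had an interval below 0 and 16.5% above 0. The called genes were few. Usp42 had 265 and 169 copies (log2 ratio -0.61, -0.90 to -0.33) and Usp25 had 92 and 50 (-0.84, -1.37 to -0.33). After correction for the tag end their log2 ratios were -0.37 and -0.72, and no Usp gene was called lower. Usp2, a protease known for its circadian expression, had 4 and 19 copies, a log2 ratio of 2.28 (0.69 to 4.30, FDR = 0.0112, Fisher's exact test), on tags of at most 10 copies each.

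The 2 most copied Usp genes had smaller differences. Usp5, which takes apart free ubiquitin chains, had 618 and 508 copies (log2 ratio -0.25, -0.42 to -0.08). Usp14, a protease of the proteasome, had 530 and 404 (-0.36, -0.55 to -0.17, FDR = 0.00526, Fisher's exact test). All of the Usp14 difference lay on its GT tag, with 223 and 81 copies, since its other tags together had 307 and 323 (log2 ratio 0.11, -0.12 to 0.34). Usp33, picked out after its values were seen, had 247 and 177 copies (-0.44, -0.73 to -0.16, and -0.25 after correction for the tag end). Its most copied tag, ending in TG, had 142 and 76 copies, and its other tags together had 105 and 101 (-0.02, -0.43 to 0.39). Usp39, the splicing factor, had 179 and 121 (-0.53, -0.87 to -0.19). Usp7, which acts on Mdm2 and p53, had 37 and 22 copies and Usp9x, known for roles in neuronal migration, had 34 and 36, and both intervals included 0.

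The tag ends bear on these values. Among the 330 member tags whose copies over both libraries reached 20, 17 of 18 ending in GT and 15 of 17 ending in TG were lower in the PIWIL1 RNAi library, with median log2 ratios of -0.72 and -0.35. All 3 tags with 8 or more A at the end were higher, with a median of 2.01. The same classes over all genes had medians of -0.67 (GT), -0.67 (TG) and 1.39 (8 or more A), so each class had the same sign among the members as over all genes. The TG median was smaller in size among the members, and their A-run median rests on 3 tags, from Cul4a and Fbxo25. In the Usp family the GT and TG tags held 13.9% of the copies and went from 793 to 386 (interval of the log2 ratio -1.18 to -0.83), and the other tags went from 3859 to 3420 (-0.14, -0.21 to -0.07). The Usp sum without GT and TG tags was thus smaller in size and still below 0. For all members the tags of neither class had a log2 ratio of -0.00 (-0.03 to 0.02).

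The CATG site nearest the 3′ end held 53.8% of the members' copies, against 63.6% over all genes. Whether a called gene's difference was shared by its tags was read from its most copied tag against all its other tags. The interval of the other tags lay clear of 0 on the gene's side in 2 of the 11 called members, Ube2m and Cul4a. It lay on the opposite side in Ube2f. For Cul4a those other tags are again A runs, and for Ube2m they include tags 1 base from the most copied tag. The site 5 tag of Ube2m alone had 49 and 32 copies, and its interval was not computed. After correction of each tag for the median ratio of its end class, 3 of the 7 lower calls (Ube2m, Fbxo33 and Rnf180) and 2 of the 4 higher calls (Ube2f and Usp2) remained. The corrected log2 ratio was -0.98 for Ube2m. Of the lost calls, Usp25 (-0.72) and Rnf5 (-0.68) stayed past the log2 limit and missed the FDR (0.0535 and 0.0808, Fisher's exact test), whereas Ube2q1 (-0.55), Usp42 (-0.37), Ube2ql1 (0.22) and Cul4a (0.29) no longer reached the log2 limit. With Fbxo31 newly called higher, 3 of the 163 members were lower and 3 higher after the correction, against 3.82% and 1.87% of all genes. The share of all genes' calls that remained is not given here. When edgeR's exact test was given a biological coefficient of variation of 0.1 as an assumption, Ube2m and Ube2q1 remained lower and Cul4a and Ube2f higher, where 1.72% and 1.15% of all genes were called. At 0.2 the calls were 0 lower and 1 higher, Cul4a (0.0202% and 0.152% of all genes).

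**Figure D3:**
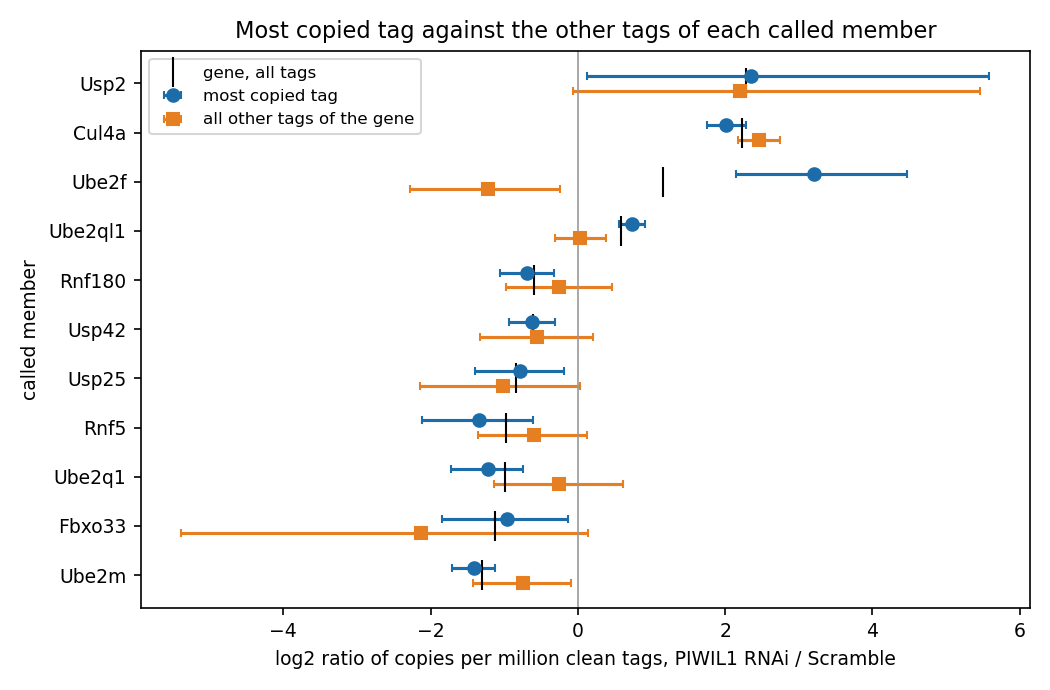
Log2 ratio of tag copies scaled to clean tags (PIWIL1 RNAi over Scramble, horizontal axis) for the 11 called members (vertical axis). Circles are the most copied tag, squares all other tags of the gene, bars exact 95% intervals for counting error and black ticks the gene with all tags; in Ube2f the circle (3.21) and the square (-1.22) lie on opposite sides of 0, and in Ube2m both lie below 0 (-1.41 and -0.75).

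The rest of the pathway was read from 7 lists of textbook genes of the ubiquitin system, of which 113 of 155 symbols were listed (114 entries, since Cops7a had 2). By the same test 12 entries (10.5%) were lower and 5 (4.39%) higher, against 5.97% and 2.96% of all genes. The entries had a median of 226.5 copies in both libraries together against 86.5 for all genes, and of all genes with at least 100 copies 8.46% were lower and 4.62% higher. The median log2 ratio was -0.12 against -0.09 for all genes. The NEDD8 branch held calls beside those of Ube2m and Ube2f. Uba3, the catalytic subunit of the NEDD8 E1, had 223 and 141 copies (log2 ratio -0.63, -0.94 to -0.31, FDR = 0.00124, Fisher's exact test), and its partner Nae1 had 47 and 29 (-0.66, -1.38 to 0.04) and was not called. Of the Dcun1d proteins, which help place NEDD8 on cullins, Dcun1d4 rose from 78 to 120 copies (0.66, 0.23 to 1.09). Dcun1d5 had 498 and 327 (-0.57, -0.78 to -0.37), just short of the log2 limit. After correction for the tag end Dcun1d4 was no longer called (0.46) and Dcun1d5 was called lower (-0.70). The RING subunit Rbx1 had 1587 and 1485 copies (-0.06, -0.16 to 0.04). Cops5, the signalosome subunit that removes NEDD8, had 96 and 93, and Cand1, which exchanges substrate receptors, had 163 and 146, both with intervals that included 0. Values for Nedd8 itself are not analysed here. These genes were chosen for display with their values known, and no test of the branch as a group was made.

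**Figure D4:**
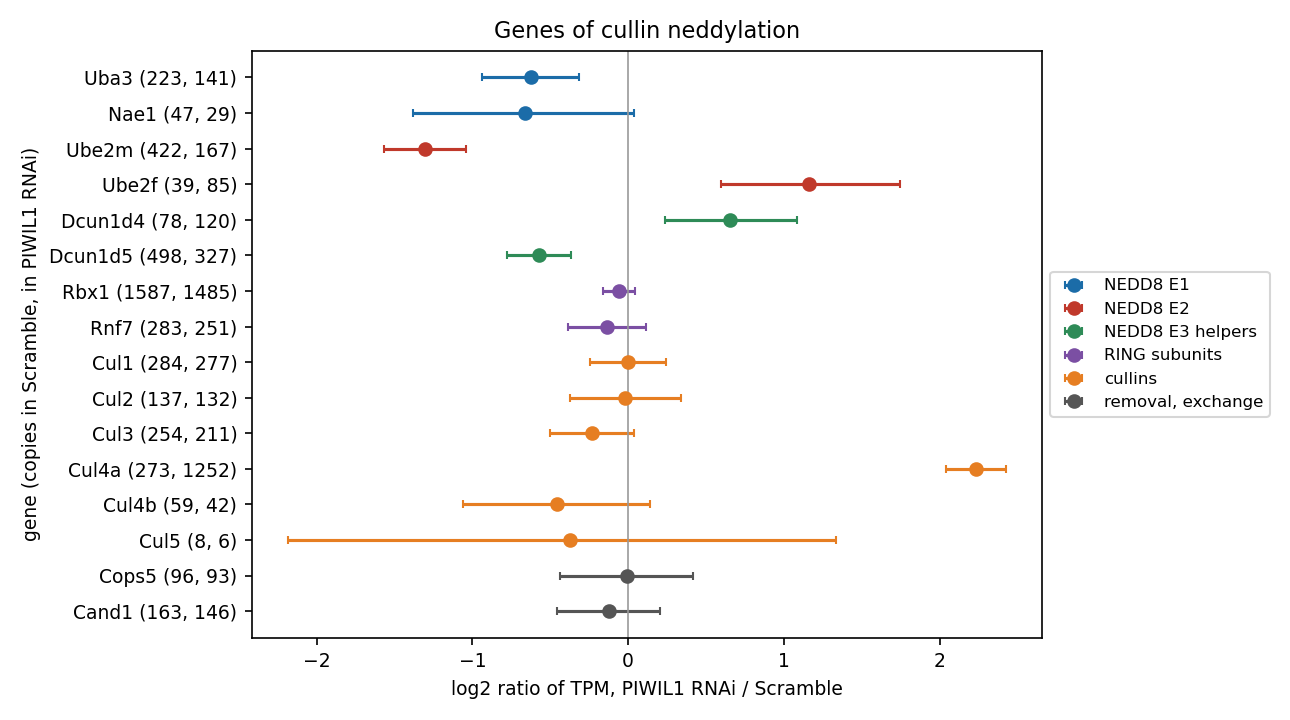
Log2 ratio of TPM (PIWIL1 RNAi over Scramble, horizontal axis) for genes that attach NEDD8 to cullins or remove it, with copies in the Scramble and PIWIL1 RNAi libraries beside each symbol and exact 95% intervals for counting error. Uba3, Ube2m and Dcun1d5 lie below 0 (-0.63, -1.30 and -0.57), and Ube2f, Dcun1d4 and Cul4a above 0 (1.16, 0.66 and 2.23). The RING subunits and the other cullins have intervals that include 0.

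In the remaining lists the calls were spread over classes. Of the 7 E1 enzymes listed, Uba3 alone was called, and Uba1, the main ubiquitin E1, had 1239 and 1100 copies (log2 ratio -0.14, -0.25 to -0.02). Among ubiquitin and its relatives Rps27a, which encodes a fusion of ubiquitin with a ribosomal protein and has near-identical copies in the genome that make its count uncertain, had 3312 and 1899 copies (-0.77). Cops7b, a signalosome subunit, had 17 and 2 copies (-3.04, -6.21 to -0.98). Of the 11 HECT ligases listed, Herc2 (77 and 42 copies) and Trip12 (212 and 138) fell and none rose, and Nedd4, the most copied, had 1215 and 1275.

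Among other ligases Trim2, a neuronal RING ligase, had 1148 and 707 copies (log2 ratio -0.66, -0.80 to -0.53) and Mycbp2, a large ligase known for its control of axon and synapse growth, had 167 and 74 (-1.14, -1.55 to -0.73). Siah1 (223 and 112) and Trim8 (144 and 89) also fell, and Topors (55 and 85), Mul1 (20 and 41) and Traf6 (0 and 9) rose. Trim28, the most copied of that list, had 1883 and 2043. In the anaphase promoting complex the coactivator Fzr1, known as Cdh1 and for its part in axon growth of neurons, had 494 and 257 copies (-0.91, -1.13 to -0.69), and none of the other 13 genes listed was called, Anapc5 having most copies with 2876 and 2440. Of the other deubiquitinases and SUMO proteases Brcc3 (74 and 24 copies, -1.59) and Stambpl1 (56 and 25, -1.13) fell and Josd1 (119 and 180, 0.63) rose, whereas Uchl1, the abundant neuronal ubiquitin hydrolase, had 2601 and 2653 (0.06, -0.01 to 0.14). After correction for the tag end the lists held 10 lower (8.77%) and 2 higher (1.75%) calls, against 3.82% and 1.87% of all genes. Those shares of all genes take no account of depth, although the entries had a median of 226.5 copies against 86.5 for all genes. No share at like depth is given for the corrected calls. Herc2, Trip12, Trim8 and Cops7b were no longer lower, and Dcun1d5 and 1 entry of Cops7a were added to the lower calls. That entry had 67 and 41 copies (corrected log2 ratio -0.91). The other entry of Cops7a, with more copies (233 and 214), was not called (-0.19). Traf6 and Otub1 were the higher ones.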

How the data were processed

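For each of the 2 libraries the authors deposited the tag count of every gene, which is the sum of the copies of its tags without normalization, the TPM of every gene (copies scaled to clean tags, without gene length), and the sequence, CATG site and copies of each tag. The program that matched tags to genes is not given in the sources used here, and the submitters' processing notes name the build rn4, so no coordinates are given. Tags with 1 copy were absent from both tables. Clean tags, from count divided by TPM, numbered 3386864 in the Scramble and 3303359 in the PIWIL1 RNAi library. The smallest level taken as measurable was 3 copies, or 0.886 and 0.908 TPM.

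Symbols came from a RefSeq table (GRCr8) by accession for 9337 genes. Of the members, 11 were matched by the files' description. The members, lists and tests were chosen with earlier results of these data known. Fisher's exact test, two-sided, set the copies of a gene against all other copies on genes, with Benjamini-Hochberg adjustment over 9894 genes. Log2 ratios are of TPM, intervals are exact (Clopper-Pearson, 95%), and family sums and medians were not tested. For the tag-end correction a class was the final 2 bases of a tag or, from 3 A up, the length of its run, and the median log2 ratio of each class (tags of at least 20 copies, 0.5 added), estimated on one part of the genes, was taken out of the other part.

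The members named are those called, the 2 with most copies in each family, those with over 50% of copies on tags ending in 8 or more A, and a fixed list of 28 genes, of which 21 had a value (Fbxw7, Fbxw11, Fbxo2, Fbxo45, Cul7, Usp22 and Rnf2 are not analysed here). Of the other lists the called gene and the most copied gene are named. Some genes are not reported here. Others are said to be picked out after their values were seen.

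Alternatives were A-run tags left out, the correction, 1 copy put back for tags listed in one library, TMM and DESeq2 factors, all clean tags as totals, filters at 10 copies, 1 copy added, copies summed per symbol, the exact test of edgeR given a biological coefficient of variation (BCV) of 0.1, 0.2 or 0.4, stricter thresholds, the most copied member left out and members also by description. Chosen after seeing the data were tags with 8 or more A anywhere left out, tags ending in GT or TG left out and the median over tags. The test and the correction were tested on simulated data. Computations used edgeR 4.0.16 and DESeq2 1.42.0 in R 4.3.3, and SciPy 1.17.1, pandas 2.3.3, NumPy 2.4.6 and Matplotlib 3.10.9 in Python 3.11.15.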

Additional observations from a re-analysis of the deposited data

How the results depend on the processing

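No paired analysis was possible because each condition had 1 library, and no replicate was there to be left out. The 7 lower calls became 3 after the tag-end correction, 2 at a BCV of 0.1, 0 at a BCV of 0.2 and at 0.4 (edgeR's exact test, as opposed to 7 by Fisher's exact test), 2 at a log2 limit of 1 and 3 at an FDR of 0.001, and ranged from 5 to 8 under the others. The 4 higher calls became 7 with TMM or DESeq2 factors and 2, 1 and 0 at a BCV of 0.1, 0.2 and 0.4, and were 3 to 5 otherwise. At a BCV of 0.4 no gene of the 9894 was called. The share of all genes is not given here for DESeq2 factors, stricter thresholds, copy filters and the other settings not named with a share above. Counts under those settings therefore cannot be set against the libraries as a whole. The 5 higher calls of the other lists became 2 after the correction and 3 with 1 copy put back. An assumed BCV stands for a spread between cultures that these libraries do not measure.

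The log2 ratio of the Cul sum changed sign without tags ending in 8 or more A (-0.0370), without tags holding 8 A anywhere (-0.0752) and without Cul4a (-0.0880), and was 0.0704 after the correction. The Usp sum stayed below 0 in every alternative, nearest to it without GT and TG tags (-0.14), with TMM (-0.16) and with DESeq2 factors (-0.17). TMM and DESeq2 factors gave 0.0673 and 0.0578 for Ube2, 0.102 and 0.0925 for Rnf and 0.0921 and 0.0826 for all members, and TMM gave 0.0737 for Fbxo. Leaving out the most copied member gave -0.0757 for Ube2, -0.113 for Fbxo and 0.101 for Fbxw. The Fbxw sum was 0.0668 after the correction and 0.103 without GT and TG tags, and its median was -0.0202 after the correction, -0.0127 with TMM and -0.0222 with DESeq2 factors. The sum of all members was -0.0588 without terminal A-run tags, -0.0599 without tags holding 8 A anywhere, -0.0530 after the correction and 0.0570 without GT and TG tags.

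Among genes with no call, the sign changed after the correction for Ube2l6 (-0.0179), Rnf7 (0.26), Cul3 (0.0166) and Fbxl19 (0.15). Without GT and TG tags it changed for Usp14 (0.11), Rnf7 (0.15), Fbxl19 (0.0684) and Cul2 (0.12). With TMM and DESeq2 factors it changed for Fbxl19 (0.0750 and 0.0655), Cul2 (0.0768 and 0.0674) and Ube2v1 (0.0244 and 0.0149), and with 1 copy put back for Fbxl19 (0.0085). The cause was not tested. Depth limits members such as Cul5, Usp7 and Rnf6, for which differences were not detectable.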
